A study of Sus scrofa with 42 samples.

Results

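The 2-cell stage is the only point of this pig series at which both daughter cells of the first cleavage were sequenced from every embryo, and these sister blastomeres are described here. Cells were chosen by their names, as the 12 columns of the FPKM table for IVF and PA 2-cell blastomeres, out of 42 cells in all. Cells of the same method with the same embryo number are sisters, which gives 6 sister pairs of 6 embryos, 3 by in vitro fertilization (IVF) and 3 by parthenogenetic activation (PA). All oocytes came from pig ovaries and were matured in vitro. IVF oocytes were incubated with sperm, whereas PA oocytes received an electric pulse followed by 6-dimethylaminopurine and cytochalasin B, so that PA embryos carry the maternal genome alone. Blastomeres were separated with trypsin and a fine pipette and lysed singly, and transcripts with or without polyA tails were amplified. The extraction protocol deposited with the samples describes Trizol extraction of oocytes instead. FPKM, which scale the fragments of a gene by its length and by the mapped reads of the cell, are compared throughout as log2(FPKM + 1), which understates the change of genes near 0.

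The first cleavage of a mammalian egg divides a large store of maternal RNA and mitochondria between the daughter cells, before the major activation of the embryo's own genes. Sisters therefore hold RNA from the same oocyte, while cells of different embryos hold RNA from different oocytes. Mitochondria, with their own small genome, come from the oocyte, and nuclear chromosomes carry inserted copies of pieces of that genome.

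2 of the 12 libraries need naming first. PA 2-cell-1-2 nearly repeats PA 4-cell-1-4, and PA 2-cell-2-1 nearly repeats PA 4-cell-2-1. On the log2(FPKM + 1) scale, Pearson's r over all genes was 0.999 in both cases, and none of 859 further pairs of cells exceeded 0.931. A chi-square of their reads over genes, divided by its degrees of freedom, was 5.37 and 2.14, which is more than sampling noise, but it was 345 to 1379 between sisters of the 2-cell stage. By values, PA 4-cell-1-4 differed from the 2-cell sister of the library it repeats by a mean of 1.23 on the log2 scale, and from its labelled 4-cell sister by 1.76. PA 4-cell-2-1 differed by 1.22 from that 2-cell sister and by 1.71 to 1.81 from its 3 labelled 4-cell sisters. These values were not taken on the same basis as the sister differences given below. On that later basis, PA 4-cell-1-4 and PA 4-cell-1-3 differed by 1.88, and the sisters of PA 2-cell embryos 1 and 2 by 1.40 and 1.39. The 1.23 and 1.22 thus do not show that a 4-cell library lay nearer to the 2-cell sister than its near-repeat did. Results below are given with all 12 cells, and without the 2 PA 2-cell libraries where the result changes.

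Reads could be recovered for 14630 genes from the steps of the FPKM and came to 7842191 to 12606593 in IVF and 9941528 to 13499938 in PA 2-cell blastomeres. Between 7017 and 7814 genes were above 0 in IVF and between 6104 and 6918 in PA cells. Oocyte genes marked every cell. The transcripts of BTG4, an adaptor of maternal RNA decay, were between 549 and 1364 FPKM and those of WEE2, an oocyte kinase that holds back meiosis, between 217 and 682 FPKM. Of 10 oocyte markers in the table, ZAR1 was at 0 in 9 cells, OOEP in 3 and ZP3 in 4, and the summed level was 1233 to 2285 FPKM in IVF and 1138 to 1572 FPKM in PA cells. The 5 markers of cumulus or granulosa cells, which surround the oocyte, summed to 0.286 to 16.1 FPKM in IVF and 0.0253 to 15.4 FPKM in PA cells, where STAR reached 15.8 FPKM and TNFAIP6 was at 0 in all 12 cells. AKAP4, the one sperm marker in the table, was at 0 in 10 cells and at most 0.241 FPKM.

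Over whole transcriptomes, sisters differed almost as much as cells of different embryos. Over the 5685 genes with a mean of at least 1 FPKM in the 12 cells, the mean absolute log2 difference was 1.28, 1.12 and 1.02 between the sisters of IVF embryos 1, 2 and 3, and 1.14 ± 0.129 on average (SD, n = 3 pairs). Between IVF cells of different embryos it was 1.23 ± 0.086 (SD over 12 pairs, which share cells). In PA embryos 1, 2 and 3 the sister difference was 1.40, 1.39 and 1.501, with a mean of 1.43 ± 0.061 (SD, n = 3 pairs), against 1.47 ± 0.0294 between embryos (12 pairs). The closest sisters were those of IVF embryo 3 and the most different were those of PA embryo 3. The ranges of sister and between-embryo pairs overlapped in both methods.

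**Figure D1:**
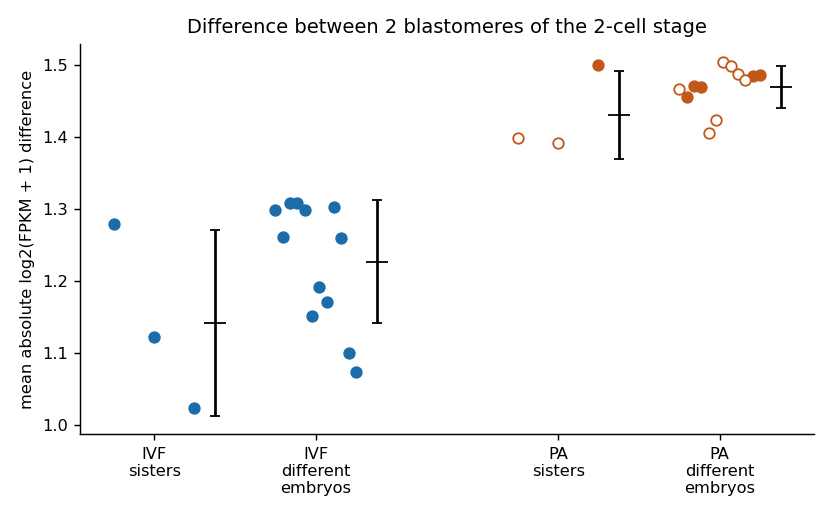
Each point is a pair of 2-cell blastomeres of the same method, sisters or cells of different embryos, and the vertical axis gives the mean over 5685 genes of the absolute difference in log2(FPKM + 1). Black bars are the mean and SD of the pairs, and open points are pairs that include PA 2-cell-1-2 or PA 2-cell-2-1, among them both PA sister pairs at 1.40 and 1.39.

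Pairing the cells as the labels do gave the smallest mean difference among all ways of pairing cells within a method. The difference of sisters minus that of cells from different embryos was -0.06 for both methods together (exact permutation test over all pairings within the methods, two-sided p = 0.00444, the smallest it can give). For IVF it was -0.09 and for PA -0.04, with p = 0.0667 in each by the exact test over 15 pairings, again the smallest possible. Over both methods it was -0.10 at a mean of at least 10 FPKM or with a pseudocount of 0.1, and -0.03 without the filter on low values. Without PA 2-cell-1-2 and 2-1, the value for both methods was -0.07 and p = 0.0667 (exact test over 90 pairings, in which 5 had a smaller mean), a value that then weighs IVF and PA unequally. In PA, the only pair left, the sisters of embryo 3, differed by 1.53 against 1.4996 between embryos, so that the PA value turned to 0.03. The nearest cell of the same method was the sister for 3 of 6 IVF cells and 4 of 6 PA cells, and those 4 PA cells are the sisters of embryos 1 and 2. Both cells of PA embryo 3 were nearer to PA 2-cell-1-1 than to each other.

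The smaller difference of sisters was seen mostly in abundant transcripts. Over all 5685 genes, the median gene had a sister difference of 1.21 (mean over the 6 pairs) and a difference of 1.29 between embryos, and 50.2% of genes had the smaller value in sisters. Among the 1884 genes with a mean of 1 to 3 FPKM, the medians were 1.05 in sisters and 1.09 between embryos. They were 1.33 and 1.501 for the 1173 genes at 10 to 30 FPKM, 0.56 and 0.75 for the 131 genes at 100 to 300 FPKM, and 0.38 and 0.58 for the 46 genes at 300 FPKM or more. The share of nuclear genes that differed less in sisters went from 44.0% at 1 to 3 FPKM to 69.2% at 100 to 300 FPKM and 79.4%, or 27 of 34, at 300 FPKM or more. At 1 to 3 FPKM this share and the medians thus went opposite ways, with a median ratio per gene of 1.01. A gene's sister value averages 6 pairs and its between-embryo value 24, and the part of this in the medians was not tested. Depth moved with level, since the median gene had 215 reads per cell in the lowest class and 22440 in the highest, and its part in the result was not tested.

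**Figure D2:**
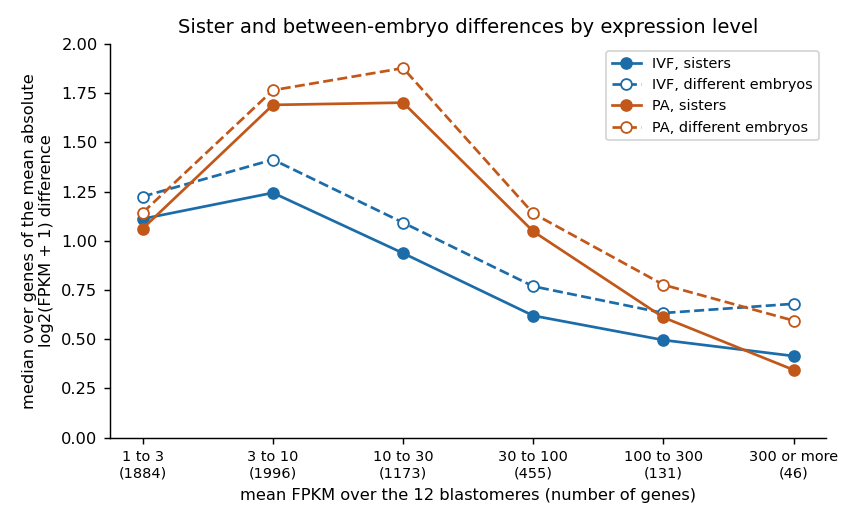
Median over genes of the mean absolute log2(FPKM + 1) difference (vertical axis) in classes of mean FPKM (horizontal axis, with the number of genes), for sisters (solid lines) and cells of different embryos (dashed lines) of IVF and PA. Sister lines lie below the dashed lines in each class, but sister values average 3 pairs per gene and method and those of different embryos 12. PA sisters are at 1.70 for genes at 10 to 30 FPKM where IVF sisters are at 0.94.

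Many genes were present in one sister and nearly absent from the other. A gene was counted as on in one cell alone where it had at least 10 FPKM in that cell and less than 0.1 FPKM in the other. By this count 264, 151 and 121 genes separated the sisters of IVF embryos 1, 2 and 3, and 380, 397 and 544 genes those of PA embryos 1, 2 and 3. As a share of the genes at 10 FPKM or more in either cell, these were 4.72% to 10.1% in IVF and 16.0% to 23.7% in PA sisters. Cells of different embryos had 7.87% ± 1.98 (SD, 12 pairs) in IVF and 19.5% ± 2.13 in PA, so that the shares of sisters lay on both sides of these means. The cell with the gene held a median of 832.5 to 2570 reads of it, depending on the pair, and the other a median of 0 to 3 reads. Of the genes involved, 1351 were on in one sister alone in a single pair and 4 genes in 4 pairs, with none in 5 or 6. These 4, named here after their values were seen, are PEX2 (a peroxisome membrane protein), ACAD11 (an acyl-CoA dehydrogenase), ENSSSCG00000015916 and ENSSSCG00000018796. PEX2 was at 0.0664 and 19.9 FPKM in the sisters of PA embryo 1, at 0.0167 and 64.3 FPKM in those of PA embryo 2, and at 0.0431 and 43.5 FPKM in those of PA embryo 3.

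Genes found in part of the cells were in whole sister pairs somewhat more often than the number of such pairs among all pairs gives. Of 1077 genes found at 1 FPKM or more in exactly 2 of the 6 IVF cells, 251 (23.3%) were found in a sister pair, and of 1123 such genes in PA, 237 (21.1%) were. Of genes found in exactly 4 cells, 155 of 737 (21.0%) in IVF and 171 of 651 (26.3%) in PA were found in whole sister pairs. Sisters make up 3 of the 15 possible pairs of cells, and 3 of the 15 possible sets of 4 cells hold whole pairs. All these shares lay above 3 in 15, and the excess was not tested.

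Against this spread, few genes were shared by sisters and different between embryos. A moderated F test of embryo within method (limma, sisters as the residual, adjusted p below 0.05 by Benjamini-Hochberg and at least 2-fold between the highest and the lowest embryo) called 9 of 5685 genes over both methods (0.158%), 5 over IVF embryos (0.088%) and 12 over PA embryos (0.211%), 15 genes in all. At an unadjusted p under 0.05 in this test there were 428 (7.53%), 272 (4.78%) and 562 genes (9.89%). The 3 embryos did not overlap, each sister pair lying wholly above or below the next, for 508 genes in IVF (8.94%), 383 in PA (6.74%), and in both methods at once for 39 (0.686%). Without PA 2-cell-1-2 and 2-1, the test called 3, 3 and 55 genes. In that fit PA embryos 1 and 2 hold 1 cell each, which is assumed to vary like the other sisters.

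The gene with the smallest adjusted p was ENSSSCG00000035520, annotated as protein coding at X:22068922-22069186 on the plus strand of Sscrofa11.1, where RefSeq has no gene. In the IVF cells it was at 0.933 and 2.69 FPKM in embryo 1, at 2270 and 2764 FPKM in embryo 2, and at 4.00 and 5.13 FPKM in embryo 3. In the PA cells it was at 1201 and 1207 FPKM in embryo 1, at 956 and 1100.2 FPKM in embryo 2, and at 4.65 and 5.39 FPKM in embryo 3. Both sisters of IVF 2, PA 1 and PA 2 were thus high and both sisters of the other embryos low, with no overlap (limma F test over both methods, adjusted p = 1.68e-08). The call over both methods was kept in each of 16 alternatives, and the calls over IVF and over PA embryos were each lost in 1 of 16.

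ND1, a mitochondrial subunit of respiratory complex I at MT:3922-4876 on the plus strand, had the opposite pattern. It was at 115 and 202 FPKM in IVF embryo 1, at 3.35 and 3.82 FPKM in IVF embryo 2, and at 212 and 223 FPKM in IVF embryo 3. In PA it was at 3.76 and 23.4 FPKM in embryo 1, at 2.01 and 3.78 FPKM in embryo 2, and at 116 and 126 FPKM in embryo 3. The embryos high for the X gene were those low for ND1, without exception among the 6 (adjusted p = 0.00502 over both methods, limma F test). The call of ND1 was lost in 3 of 14 alternatives over both methods, in 4 of 14 over IVF and in 9 of 14 over PA embryos. Sequence from the genome of the files' build is shown for both because they are copies of each other. The 265 bases of the X gene match MT:4473-4737, inside the coding sequence of ND1, without a gap and with 2 mismatches (99.2% identity), which stand in capitals.
Chromosome X gene: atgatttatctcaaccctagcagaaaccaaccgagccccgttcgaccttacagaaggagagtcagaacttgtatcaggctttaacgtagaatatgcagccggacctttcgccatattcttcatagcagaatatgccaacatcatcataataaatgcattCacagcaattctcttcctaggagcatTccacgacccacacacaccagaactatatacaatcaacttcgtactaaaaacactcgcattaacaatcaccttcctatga
ND1 segment: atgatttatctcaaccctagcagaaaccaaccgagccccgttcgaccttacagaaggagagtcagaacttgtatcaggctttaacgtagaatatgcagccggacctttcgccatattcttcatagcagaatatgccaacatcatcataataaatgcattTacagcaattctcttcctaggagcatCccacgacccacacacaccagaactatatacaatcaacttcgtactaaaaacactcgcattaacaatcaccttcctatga
Counted from 1 at the first base of the segment, with the mitochondrial base first, the differences are T160C and C186T. Outside the annotated gene the similarity ran on, without gaps, from X:22068272 to X:22070636 against MT:3823-6187, with 88.8% identity over 2365 bases.

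Because of this identity, reads of the 2 genes cannot be assigned with certainty to either, and both values are uncertain as levels of a gene. Taking their reads together, the X gene held 0.19% and 0.313% in IVF embryo 1, 99.4% in both cells of IVF embryo 2, and 0.444% and 0.54% in IVF embryo 3. The shares were 98.7% and 92.4% in PA embryo 1, 99.1% and 98.6% in PA embryo 2, and 0.935% and 0.999% in PA embryo 3. No 2-cell blastomere lay between 1% and 92.4%, and sisters lay on the same side in 6 of 6 embryos. Reads of both genes together were 268 to 505 RPM (recovered reads scaled to the depth of the cell) in the 6 cells with low shares and 649 to 1741 RPM in the 6 cells with high shares. The near-repeat libraries of the 4-cell stage differed in this share. It was 87.8% in PA 4-cell-1-4 and 0.324% in its labelled sister PA 4-cell-1-3. Theirs was the only embryo of the 4-cell stage whose cells lay on both sides (5 of 6 did not). PA 4-cell-2-1, at 98.8%, lay on the same side as its labelled sisters (98.8% to 99.3% over the embryo). What this means for the labels was not tested.

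**Figure D3:**
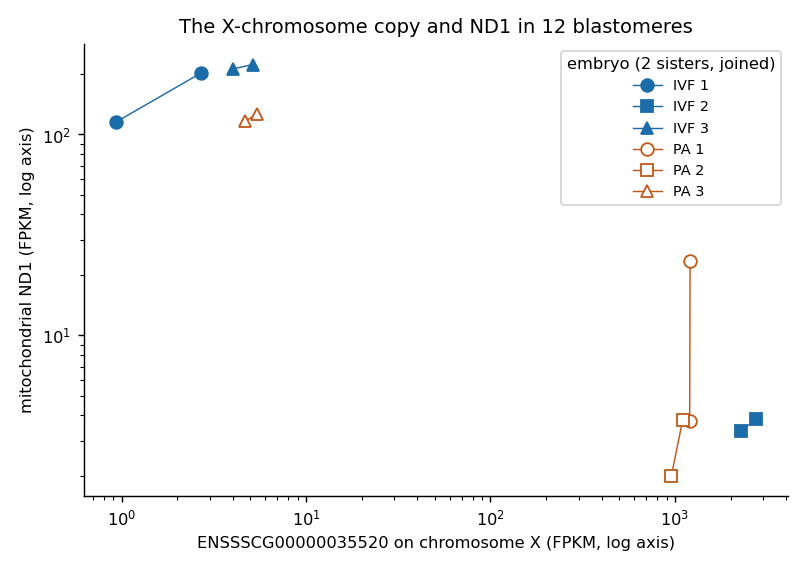
FPKM of ENSSSCG00000035520 on chromosome X (horizontal, log axis) and of mitochondrial ND1 (vertical, log axis) in the 12 blastomeres of the 2-cell stage, with sisters joined by a line. Cells form 2 groups of 6, at 0.933 to 5.39 FPKM of the X gene with 115 to 223 FPKM of ND1 and at 956 to 2764 FPKM with 2.01 to 23.4 FPKM, and no line crosses between them.

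ND2, ND6 and a tRNA, further transcripts of the mitochondrial genome, were split between embryos in the direction of ND1. Other mRNAs ran against it in IVF, where ATP6, COX1, COX3 and ND4 were highest in IVF 2, the embryo lowest for ND1. COX1 was at 5348 and 6188 FPKM in IVF 2 against 1836 to 3497 FPKM in IVF 1 and 3. COX3 was at 4974 and 4034 FPKM in IVF 2 against 1212 to 2352 FPKM. ND2, a further subunit of complex I (MT:5087-6128, plus strand), was at 2343 and 2282 FPKM in IVF 2 against 2563 to 3249 FPKM in IVF 1 and 3, and at 2537 and 1985 FPKM in PA 3 against 1195 to 1868 FPKM in PA 1 and 2, without overlap, but it was not called (adjusted p = 0.166 over both methods, limma F test). A tRNA and ND6, both encoded on the minus strand, were called. ENSSSCG00000018096, the tRNA for proline at MT:16550-16613, was at 1375 and 1093 FPKM in IVF embryo 1, 130 and 153 FPKM in IVF embryo 2, and 1162 and 1492 FPKM in IVF embryo 3. In PA it was at 130 and 137 FPKM in embryo 1, 41.5 and 6.13 FPKM in embryo 2, and 441 and 504 FPKM in embryo 3 (adjusted p = 0.0031 over both methods, limma F test). ND6, another subunit of complex I at MT:14739-15266, was at 2534 to 4374 FPKM in IVF 1 and IVF 3 against 1289 and 1537 FPKM in IVF 2, and at 2217 and 1990 FPKM in PA 3 against 302 to 1089 FPKM in the other PA cells (adjusted p = 0.00927). The last 17 bases of ND6 overlap ND5 on the opposite strand, and no strand is given for the counting. For the tRNA, the sequence is given since the files name it by identifier alone.
tRNA-Pro: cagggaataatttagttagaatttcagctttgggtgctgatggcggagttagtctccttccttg

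The other mitochondrial mRNAs also differed less between sisters than between embryos. Of the 13 mRNAs, 12 were abundant enough to test (ATP8 was not), and 12 of 12 had the smaller difference in sisters. Their medians were 0.39 in sisters and 0.70 between embryos, beside 1.21 and 1.29 for all genes tested. These mRNAs had a median level of 1809 FPKM, against 5.18 FPKM for all genes tested. Nuclear genes at 300 FPKM or more had medians of 0.39 in sisters and 0.56 between embryos, and 27 of 34 differed less in sisters. The small sister difference was thus shared with nuclear genes of high level. The 3 IVF embryos did not overlap for 6 of the 12 (8.94% of all genes) and the 3 PA embryos for 2 (6.74%). ATP6, a subunit of ATP synthase, was at 3979 and 8031 FPKM in IVF embryo 1, at 16995 and 15400 FPKM in IVF embryo 2, and at 6904 and 9127 FPKM in IVF embryo 3 (adjusted p = 0.0346 over IVF, limma F test). In the 6 PA cells it was at 4969 to 7161 FPKM and was not called, and the IVF call was lost in 9 of 13 alternatives. ND4 had the smallest sister difference of the mRNAs, 0.14 against 0.59 between embryos, with 650 and 731 FPKM in IVF 2 as its highest pair and 151 and 165 FPKM in PA 3 as its lowest. Sisters were not always equal in the sum of these mRNAs. It was 1.58 times as high in blastomere 2 as in blastomere 1 of IVF embryo 1 and 1.36 times in PA embryo 1, where all 13 mRNAs were higher in the same cell, and 1.02 to 1.17 times apart in the other pairs. The shallower cell of IVF embryo 1, with 7842191 reads against 11040919, was the one with less.

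snoR38, a small nucleolar RNA of 72 bases at 12:4957149-4957220 on the minus strand, inside an exon of the noncoding RNA LOC100517116, was present in one embryo. Both sisters of PA embryo 2 had it, at 306 and 291 FPKM. In the other 10 cells it was at 0 in 9 and at 0.421 FPKM in PA 2-cell-3-2 (adjusted p = 0.00183 over PA embryos, limma F test). It passed the filter on level through PA embryo 2 alone. Pairs at 0 in both cells enter the test as sisters without a difference. The p-value thus does not measure how well sisters that hold this RNA match. Small nucleolar RNAs guide chemical modification of ribosomal and other RNAs. PA 2-cell-2-1 is one of the near-repeat libraries, and its sister alone carries the value without it (adjusted p = 0.0347). All 72 bases lie in the exon of LOC100517116 on the same strand, so reads of snoR38 cannot be told from those of LOC100517116. The sequence printed is that of the annotated gene whose value set this embryo apart.
snoR38: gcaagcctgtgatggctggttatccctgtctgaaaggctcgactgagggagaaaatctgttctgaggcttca

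Some nuclear genes were low in both sisters of 1 embryo. MINPP1, a phosphatase of inositol polyphosphates (14:99574423-99628395), was at 0.112 and 0.127 FPKM in PA embryo 1 and at 12.6 to 35.5 FPKM in the other 10 cells (adjusted p = 0.0188 over PA embryos, limma F test). TMEM170B, a membrane protein (7:8093874-8127427), was at 0.0908 and 0.198 FPKM in PA embryo 3 and at 9.88 to 61.5 FPKM elsewhere (adjusted p = 0.0389). GRSF1, an RNA-binding protein of mitochondrial RNA granules (8:67590969-67607304), was at 2.55 and 2.499 FPKM in PA embryo 2 and at 17.3 to 170 FPKM elsewhere (adjusted p = 0.0389). The low pair of each of these genes lay below all other cells, and it was a different PA embryo for each gene. Without PA 2-cell-1-2 and 2-1 the adjusted p was 0.0478 for MINPP1, 0.0915 for TMEM170B and 0.179 for GRSF1. Over all alternatives, the call was lost in 6 of 16 for MINPP1, 12 of 16 for TMEM170B and 11 of 16 for GRSF1.

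**Figure D4:**
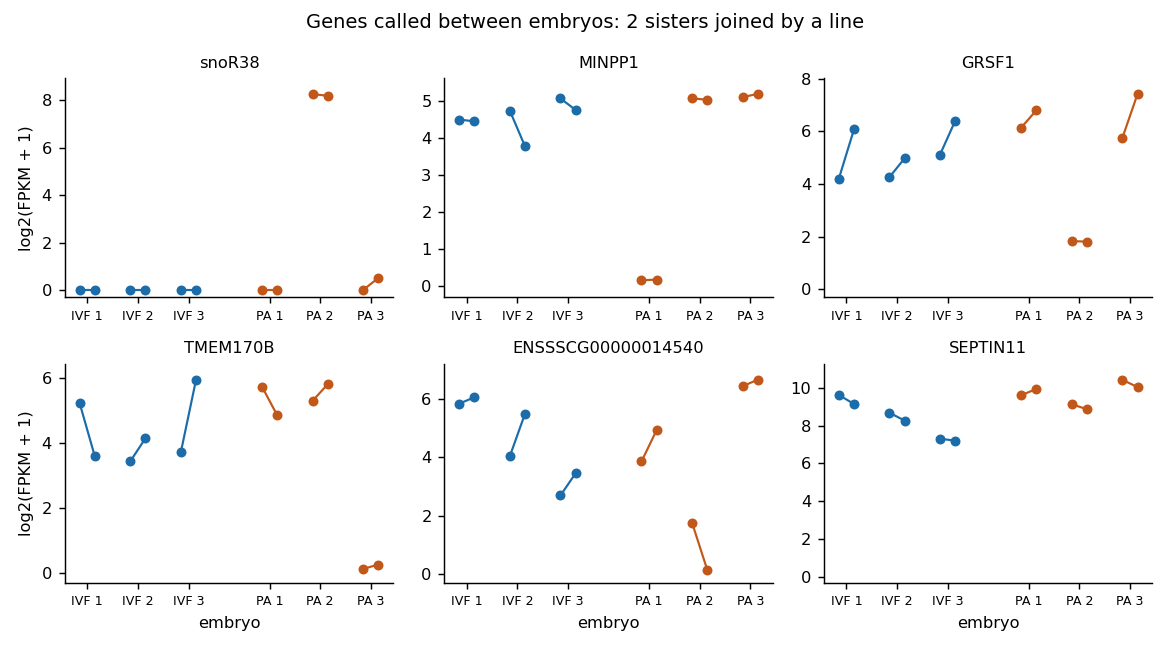
log2(FPKM + 1) (vertical axis) of 6 genes called between embryos, with the 2 sisters of each embryo (horizontal axis) joined by a line, IVF in blue and PA in orange. snoR38 stands out in PA 2 at 306 and 291 FPKM, MINPP1 is low in PA 1, GRSF1 in PA 2 and TMEM170B in PA 3.

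Other called genes were graded over embryos. SEPTIN11, a cytoskeletal GTPase (8:72543637-72679166), was at 784 and 561 FPKM in IVF embryo 1, 408 and 305 FPKM in IVF embryo 2, and 157 and 146 FPKM in IVF embryo 3, without overlap (adjusted p = 0.0187 over IVF embryos, limma F test). FAM151B (2:89112321-89144266) was at 865 and 880, 770 and 508, and 223 and 182 FPKM in the same embryos (adjusted p = 0.0187). Both were lowest in IVF embryo 3. ENSSSCG00000014540, which overlaps RefSeq's gene of ferritin heavy chain, FTH1, on the same strand (2:9535046-9538043), was at 13.5 and 29.5 FPKM in PA embryo 1, at 2.36 and 0.0979 FPKM in PA embryo 2, and at 85.6 and 100.1 FPKM in PA embryo 3 (adjusted p = 0.0389). SSX2IP, a centrosome protein (6:129055518-129113619), was at 255 and 219, 14.1 and 21.8, and 51.4 and 91.9 FPKM in PA embryos 1, 2 and 3 (adjusted p = 0.0497). PA embryo 2 was lowest for both. ENSSSCG00000000296 (5:19669821-19673217), with a mean of 5427 FPKM over the 12 cells, was called for a smaller difference, 5608 and 6566 FPKM in PA 1, 3470.1 and 3763 FPKM in PA 2 and 7663 and 7165 FPKM in PA 3 (adjusted p = 0.00407). ENSSSCG00000039605 (18:13394292-13394507) was at 1.14 and 0.483 FPKM in PA embryo 1 and at 32.8 to 235 FPKM in the other PA cells (adjusted p = 0.00987). It lies within a noncoding exon stretch of MTPN on the opposite strand, so its reads cannot be told from those of MTPN. SEPTIN11, FAM151B, ENSSSCG00000000296 and the X gene belong to a list of abundant genes that the study chose on these samples. Without PA 2-cell-1-2 and 2-1, ENSSSCG00000014540 kept its call, and SEPTIN11, FAM151B, ATP6, SSX2IP, ENSSSCG00000000296 and ENSSSCG00000039605 lost theirs. ND6 and snoR38 then kept the call over PA embryos and lost it over both methods. Over all alternatives, the PA call was lost in 12 of 16 for SSX2IP, 10 of 16 for ENSSSCG00000014540, 7 of 16 for ENSSSCG00000000296, 6 of 16 for ENSSSCG00000039605, 4 of 16 for ENSSSCG00000018096, 4 of 13 for ND6 and 0 of 15 for snoR38. The IVF call was lost in 7 of 15 for SEPTIN11 and 6 of 16 for FAM151B.

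Genes with the largest sister differences are described without a test, since the choice itself fixes that they vary within embryos and keeps the F test from calling them. Among the 1805 genes with a mean of at least 10 FPKM, the 8 with the largest mean sister difference ranged from 3.76 to 4.03 on the log2 scale. FAM19A4, a secreted neuropeptide-like protein (13:50147905-50353410), was at 0.0248 and 14.5 FPKM in the sisters of IVF embryo 1, at 38.7 and 0.202 FPKM in those of PA embryo 1, and at 63.9 and 0.0143 FPKM in those of PA embryo 3. GPR151, an orphan G protein-coupled receptor (2:147856604-147857869), was at 41.6 and 0.241 FPKM in IVF embryo 3 and at 104 and 0.0958 FPKM in PA embryo 3. The high sister was not the same blastomere number in every embryo. The other 6 carry identifiers alone, ENSSSCG00000039296, ENSSSCG00000015916, ENSSSCG00000037181, ENSSSCG00000018796, ENSSSCG00000021368 and ENSSSCG00000012003. ENSSSCG00000037181 and ENSSSCG00000039296 overlap VAPA and GTPBP10 on the opposite strand. ENSSSCG00000012003 and ENSSSCG00000021368 overlap coding sequence of RefSeq's ROBO2 and MACROD2 on the same strand. ENSSSCG00000018796 lies within IL1RAPL1 on the opposite strand, outside its exons, and RefSeq has no gene at ENSSSCG00000015916. At the other end, 8 genes had mean sister differences of 0.10 to 0.20. Beside snoR38, ND4, ND2 and ENSSSCG00000000296 these were KLHL15, GGPS1 (an enzyme of isoprenoid synthesis), CASD1 (a sialic acid acetyltransferase) and DNMT1, the maintenance DNA methyltransferase. The small value of snoR38 comes mostly from pairs at 0 in both sisters. DNMT1 was at 1048 to 1443 FPKM in the IVF cells and at 753 to 1386 FPKM in the PA cells, with a sister difference of 0.20 against 0.30 between embryos. CASD1 was even over all cells, from 62.3 to 88.1 FPKM, with 0.19 in sisters and 0.20 between embryos.

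**Figure D5:**
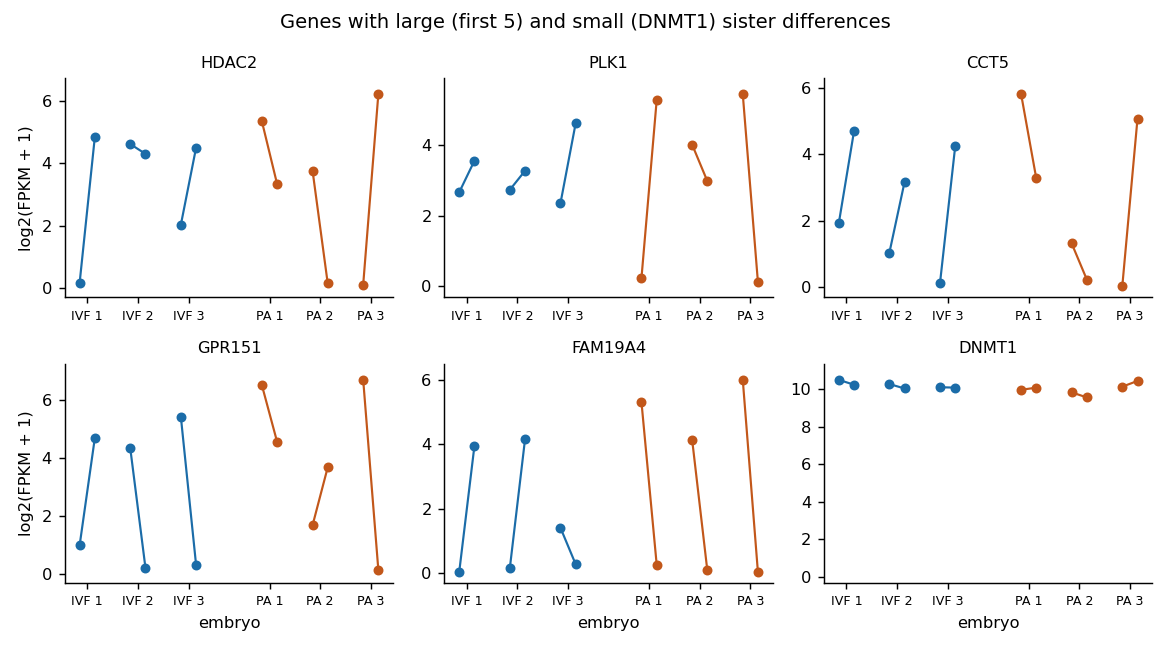
log2(FPKM + 1) (vertical axis) of 5 genes with large sister differences (HDAC2, PLK1, CCT5, GPR151 and FAM19A4) and of DNMT1, whose sister difference was 0.20, with the sisters of each embryo (horizontal axis) joined by a line, IVF in blue and PA in orange. Many lines of the first 5 genes are steep, with exceptions such as HDAC2 in IVF 2 at 23.6 and 18.7 FPKM, and the lines of DNMT1 are nearly flat.

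No member of the functional lists below was called over both methods, and their counts can be set beside all genes. Of these, 50.2% differed less between sisters than between embryos and 0.158% were called over both methods. An unadjusted p under 0.05 (limma F test) was held by 7.53% of all genes over both methods, 4.78% over IVF and 9.89% over PA embryos. Of 34 cell cycle genes tested, 25 differed less between sisters, 0 were called and 4 had an unadjusted p under 0.05 (limma F test over both methods), with a median of 1.26 in sisters and 1.48 between embryos. PLK1, a mitotic kinase, was at 5.32 and 10.7 FPKM in IVF embryo 1 and at 4.11 and 23.4 FPKM in IVF embryo 3, but at 0.185 and 37.3 FPKM in PA embryo 1 and 42.5 and 0.0836 FPKM in PA embryo 3. CCNB1, cyclin B1, had the smallest sister difference among members with a mean of at least 10 FPKM, at 19.95 to 38.4 FPKM in IVF and 15.7 to 44.8 FPKM in PA cells. Of 30 genes of maternal RNA decay, 18 differed less between sisters, 0 were called and 5 had an unadjusted p under 0.05 in the limma F test. CNOT8, a deadenylase, had its largest sister difference in PA embryo 3, at 0.0905 and 79.0 FPKM, and IGF2BP3, an RNA-binding protein, its smallest mean difference, 0.22, at 523 to 1091 FPKM.

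Of 20 oocyte and maternal-effect genes tested, 13 differed less between sisters, 0 were called by limma and 2 had an unadjusted p under 0.05. MOS, the kinase that starts the meiotic MAP kinase cascade, was at 30.1 and 0.594 FPKM in PA embryo 2. Among 26 genes of chromatin and DNA methylation 13 differed less, with medians of 1.16 in sisters and 1.2003 between embryos, and 0 were called or had an unadjusted p under 0.05 (limma). HDAC2, a histone deacetylase, was at 0.118 and 27.8 FPKM in IVF embryo 1, at 12.6 and 0.101 FPKM in PA embryo 2, and at 0.0654 and 74.1 FPKM in PA embryo 3, but at 23.6 and 18.7 FPKM in IVF embryo 2. Both sisters were above 0.5 FPKM in only 3 of the 6 embryos. Of 21 heat shock proteins and chaperonins, 13 differed less. CCT5, a subunit of the cytosolic chaperonin, was at 0.0983 and 17.9 FPKM in IVF embryo 3 and at 0.0264 and 32.5 FPKM in PA embryo 3, and DNAJA2, a co-chaperone, at 170 to 318 FPKM in IVF and 277 to 533 FPKM in PA cells. Of 9 lineage and pluripotency regulators tested, 6 differed less. YAP1, a coactivator of the Hippo pathway, was at 174 to 279 FPKM in IVF and 335 to 635 FPKM in PA cells, with 0.35 in sisters and 0.37 between embryos, and SALL4 had a sister difference of 0.88. Of 18 cytosolic ribosomal protein genes 10 differed less, with RPL15 at 0.83 and RPS3 at 0.59 in sisters. Of 42 nuclear noncoding RNAs 10 differed less, at a median ratio of sister to between-embryo difference of 1. A gene found in a single cell gives equal values by arithmetic, so the genes not counted as less include ties. This list was matched by symbol and does not hold snoR38, which was called. ENSSSCG00000034425 was at 132 FPKM in IVF 2-cell-2-2 and 0 in the other 11 cells, which gives 1.18 both in sisters and between embryos. No gene of the group of SLA and antigen presentation reached a mean of 1 FPKM, and 0 members of the 8 lists, which leave out snoR38, were called over IVF or over PA embryos either (limma, with unadjusted p under 0.05 for 0 to 3 genes of a group over IVF and 1 to 6 over PA).

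Sisters of PA embryos differed more than those of IVF embryos, by 1.43 ± 0.061 against 1.14 ± 0.129 (SD, n = 3 embryos each), and the 2 groups did not overlap. The PA pairs of embryos 1 and 2 each hold a near-repeat library. Without PA 2-cell-1-2 and 2-1, only the pair of embryo 3 is left in PA, at 1.53 against a mean of 1.16 in IVF. The difference of IVF minus PA was -0.29 with p = 0.1 by an exact permutation test over 20 assignments of embryos, two-sided, the smallest that 3 against 3 can reach. Without the filter on low values it was -0.07 with p = 0.2 (exact permutation test), and at a mean of at least 10 FPKM -0.64. With pseudocounts of 0.1 and 5 it was -0.53 and -0.16, and with a median ratio over nuclear genes -0.49. Among level classes it was wide in genes of middle level, with medians of 0.94 in IVF and 1.70 in PA sisters at 10 to 30 FPKM, and had the other sign at 300 FPKM or more, with 0.41 in IVF and 0.34 in PA, and in the 1884 genes at 1 to 3 FPKM, with 1.11 in IVF and 1.06 in PA. Of all genes tested, 16.8% ± 2.62 differed 8-fold or more (after adding 1) between PA sisters and 7.80% ± 2.65 between IVF sisters (SD, n = 3 pairs). PA cells had fewer genes above 0 (6104 to 6918 against 7017 to 7814) at overlapping depths, and the part of this in the result was not tested. Fewer molecules of an RNA in a cell and a lower yield of its amplification cannot be told apart in these data.

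Which genes varied between sisters was only partly shared between the methods. Over the 1805 genes with a mean of at least 10 FPKM, Spearman's rho between the IVF and the PA sister difference was 0.386, and over all 5685 genes it was 0.0376, a description across genes, which share libraries and depth. Among the 1805 genes the sister difference also fell with level (rho -0.459), and the part of this in the 0.386 was not tested.

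Blastomeres of 4-cell embryos were compared over the same 5685 genes, which were chosen for their level at the 2-cell stage. The mean absolute log2 difference between cells of an embryo was 1.57 ± 0.222 at the 4-cell and 1.29 ± 0.183 at the 2-cell stage (SD, n = 6 embryos each), lower at the 2-cell stage by 0.28 (difference -0.28, exact permutation test over all assignments of embryos, two-sided p = 0.039). The size depended on the genes and the scaling, with -1.004 at a mean of at least 10 FPKM and -0.91 with a median ratio over nuclear genes (exact permutation test, p = 0.00216 in each), -0.53 and -0.18 with pseudocounts of 0.1 and 5, and -0.20 without the filter. With embryos of the same method and number taken as pairs (replicate block), p was 0.125 by the exact permutation test. Within IVF the values were 1.60 ± 0.0317 and 1.14 ± 0.129, without overlap, and within PA 1.54 ± 0.346 and 1.43 ± 0.061, with overlap (SD, n = 3 embryos each). Without PA 4-cell-1-4 and 2-1 the difference was -0.16 and p = 0.214 (exact permutation test), and without all 4 near-repeat libraries it was -0.21 and p = 0.175 (exact permutation test). PA embryo 2 of the 4-cell stage moved from 1.55 to 1.24 when its near-repeat library was left out, and PA embryo 1 had no second cell left.

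Of the 15 genes called at the 2-cell stage, 4 were also called between embryos of the 4-cell stage, where the same test called 13 of 6222 genes over both methods (0.209%), 11 over IVF (0.177%) and 12 over PA embryos (0.193%). These 4 were the X gene, ND1, ND6 and ATP6, and the same 4 were called without the 2 near-repeat libraries, where 79 genes were called over both methods (1.27%), 52 over IVF (0.836%) and 52 over PA embryos (0.836%). A gene counts among these 4 where any of the tests called it at each stage. ATP6 was called over IVF embryos alone at the 2-cell stage. At the 4-cell stage, with all cells, it was called over PA embryos and over both methods. It was not called there over IVF (adjusted p = 0.255, limma F test). In 4-cell embryos without the 2 near-repeat libraries, the X gene differed by 0.66 between sisters and by 5.43 between embryos, ND1 by 0.44 and 4.25, and ND6 by 0.47 and 1.48. MINPP1, TMEM170B, GRSF1 and ENSSSCG00000014540 had ratios of sister to between-embryo difference of 1.28, 1.15, 1.04 and 1.21 there, above those at the 2-cell stage, which served to call them. For TMEM170B both differences were near 0, at 0.088 in sisters and 0.077 between embryos, so its ratio cannot show whether an embryo pattern was lost.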

How the data were processed

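Single blastomeres were amplified, sequenced and aligned by the authors with HISAT2 to the pig genome Sscrofa11.1, per the labels and the methods of the study. The deposited FPKM were used as given (15351 genes, 42 cells, 0 columns unused). Tool versions, strandedness and molecular identifiers are not given in the sources used here. Whole reads were recovered from the FPKM steps for 14630 of 14692 genes above 0 (99.58%, tolerance 0.02 reads). The 62 genes without them hold 16.3% to 33.3% of the summed FPKM of IVF and 16.6% to 21.3% of PA cells, so read totals cover the remaining genes. FPKM are shares, and the mitochondrial mRNAs took 12.2% to 29.7% of them in IVF and 11.2% to 15.2% in PA cells.

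Genes with a mean of at least 1 FPKM over the 12 cells were kept (5685), and log2(FPKM + 1) was used. Pairs were compared by exact permutation tests, and embryos within a method by the moderated F test of limma 3.58.1 with a mean-variance trend (R 4.3.3, Python 3.11.15, scipy 1.17.1), called at an adjusted p below 0.05 and 2-fold. Labels do not say whether embryos came from separate batches of oocytes, and p-values measure only the spread between these samples. The steps were tested on simulated data.

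Named were the 8 called genes with the largest embryo range among those whose 3 embryos do not overlap (for IVF and for PA), the 8 largest and 8 smallest sister differences at a mean of at least 10 FPKM, and the called, largest and smallest members of each gene list. ATP6, GRSF1, TMEM170B and ENSSSCG00000039605 fall outside this rule and were named, as called genes, after their values were seen, as were PEX2 and ACAD11. The members and lists were chosen with earlier results of these data known. Symbols came from the deposited table, with 369 from a table of gene names and 490 tested genes without one. Alternatives were other pseudocounts, filters, scalings, thinning of reads, variance models, a replicate block and leaving out embryos or the near-repeat libraries, of which those at the 4-cell stage were added after seeing the data. Sequences are RefSeq's for Sscrofa11.1.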

Additional observations from a re-analysis of the deposited data

Results flagged for a closer look

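Of 50 groups of 6 values tested, 10 held a sample far from the other 5. The groups included 43 named genes, many chosen by their values in these data. The count of 10 is therefore not set against a rate given by chance. A gene found in a single cell, as ENSSSCG00000034425 below, is flagged by arithmetic. The library IVF 2-cell-1-1 had 7842191 reads, against 11040919 or more in the other IVF 2-cell blastomeres. Sisters stood apart by their absolute log2 difference in IVF embryo 1 for ENSSSCG00000035520 (0.93) and in PA embryo 1 for ND1 (2.36), where the more abundant ND1 was in the near-repeat library PA 2-cell-1-2. The sisters of IVF embryo 2 stood apart for MINPP1 (0.96) and for ENSSSCG00000034425 (7.06, with 0 in the other pairs). PA embryo 2 did so for the mitochondrial tRNA ENSSSCG00000018096 (2.58) and for MOS (4.29). PA embryo 3 did so for snoR38 (0.51), KLHL15 (0.48) and ENSSSCG00000038391 (8.53), which overlaps PAK2 and PIGX on the opposite strand.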

How the results depend on the processing

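Depth of single amplified cells limits genes of few molecules, and 3 embryos per method cannot give a p under 0.0667 in the pairing test or 0.1 between methods. Without PA 2-cell-1-2 and 2-1 the sister difference minus that between embryos was 0.0277 in PA, the other direction, and -0.0703 over both methods (p = 0.0667, exact permutation test). The 2-cell minus 4-cell difference was then -0.30 (p = 0.081, exact permutation test), and it was -0.16 without PA 4-cell-1-4 and 2-1 and -0.21 without all 4 libraries. With the replicate block it was -0.28 (p = 0.125, exact permutation test). Deviations of same-numbered embryos correlated at -0.01 to 0.04 between IVF and PA and at -0.02 to 0.01 between IVF stages, so that the number was not taken as a pairing there. Between PA stages they correlated at 0.36, 0.28 and 0.10 for numbers 1, 2 and 3, of which 1 and 2 hold the near-repeat libraries. The block left the difference between methods at -0.29 (p = 0.25, exact permutation test).

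Over both methods the called genes were 19 without a filter on low values, 5 with nuclear genes rescaled to the same total, 3 without the PA libraries, 2 without a mean-variance trend and 16 with robust moderation. Over IVF embryos they were 3 with a median ratio over nuclear genes, 35 without a filter, 3 rescaled, 2 with a pseudocount of 5, 3 without the PA libraries and 1 without the trend. Over PA embryos they were 24 at a mean of at least 10 FPKM, 5 without a filter, 5 rescaled, 23 and 6 with pseudocounts of 0.1 and 5, 6 with reads thinned to 4000000, 55 without the PA libraries and 2 without the trend. The cause was not tested.

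Leaving out each embryo number in turn gave 1 to 11 called genes over both methods (1 without PA embryo 3, 3 without PA embryo 2), 2 to 5 over IVF and 3 to 9 over PA embryos. The sister difference minus that between embryos was then -0.11 to -0.03 over both methods, -0.11 to -0.05 in IVF and -0.04 in PA in each case, IVF minus PA sisters -0.37 to -0.25, and 2-cell minus 4-cell -0.31 to -0.22, where each omission but that of PA embryo 3 left p above 0.05. The value over both methods then weighs IVF and PA unequally. Of the calls of single genes recomputed under alternatives, 238 were kept and 159 lost.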
